A study of Mus musculus with 12 samples.

Results

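The 10 genes described here, Suv39h1, Atrx, Bcor, Bcorl1, Rbbp7, Ogt, Brwd3, Phf6, Msl3 and Hdac6, are X-linked. Apart from Hdac6, a mainly cytoplasmic deacetylase, they encode regulators of heterochromatin, of Polycomb silencing or of chromatin more widely. The 10 were picked by name from a deposited table of 952 X-linked genes, by a rule that uses no measured value. Earlier results of these data were known, however, when the list was made. All 10 had a value in each of the 8 ChIP libraries, as did 698 genes of the table in all. At 13.6 to 131.8 kb (median 44.5 kb) they are longer than most of those 698 genes, whose median length was 20.6 kb.

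H3K9me3 and H3K27me3, histone marks of silent chromatin, were mapped by ChIP-seq, the sequencing of DNA precipitated with an antibody to the mark, in cells of female mice that lack or carry SmcHD1, a protein of the SMC family that maintains silencing of the inactive X. The groups were SmcHD1-deficient epiblast stem cells (MD1 EpiSCs, Smchd1 MD1/MD1 and Xist deltaA/+), wild-type epiblast stem cells (WT EpiSCs, Smchd1 +/+ and Xist deltaA/+), SmcHD1-deficient embryonic fibroblasts (MD1 MEFs, Smchd1 MD1/MD1 and Xist deltaA/+) and wild-type embryonic fibroblasts (WT MEFs, Smchd1 +/+ and Xist deltaA/+). EpiSCs came from stage E6.5 and MEFs from stage E13.5, from C57BL6/J crossed with F1 animals of JF1 x C57BL6/J. All groups, the WT ones included, carry the Xist deltaA allele on 1 X, a form without the A-repeat that silencing by Xist is known to need, so no group has 2 intact Xist genes. Each group has 1 H3K9me3, 1 H3K27me3 and 1 input library, 12 libraries in all, so no difference given here has a replicate check and no test across samples was possible. Smchd1 is not X-linked and no marker of either cell type was used here, so the genotype and cell labels were not checked.

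Values are log2 enrichment per gene as deposited, read as the ratio of ChIP to the matching input, so that 0 is the input level and 1 is 2-fold over it. Each library carries 1 scaling constant of unstated origin, and the sources used do not say from which X, the active or the inactive, reads were taken. A difference between libraries therefore includes the ratio of unknown constants. Where 0 lies relative to the true input level rests on the same constant. Under input and over input thus mean under and over 0 on the deposited scale. Some values of Bcor, Ogt and Brwd3 are also placed by their percentile among all genes of the library or comparison, which a constant cannot move. The other values are given without a percentile. Single values carry a 95% counting interval from whole-number ChIP and input pairs recovered from the values. At the 10 genes the ChIP pairs ran from 7 to 119 for H3K9me3 in MD1 EpiSCs, from 23 to 1258 in WT EpiSCs, from 16 to 356 in MD1 MEFs and from 33 to 329 in WT MEFs. For H3K27me3 they ran from 191 to 6653 in MD1 EpiSCs, from 44 to 4010 in WT EpiSCs, from 12 to 3627 in MD1 MEFs and from 119 to 6533 in WT MEFs. The intervals cover counting error only, and the pairs are the smallest that give the value, so the true counts may be multiples of them.

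H3K9me3 is written by methyltransferases such as SUV39H1 and read by HP1 proteins, which compact heterochromatin. H3K27me3 is written by Polycomb repressive complex 2, of which RBBP7 is a histone-binding subunit, while BCOR and BCORL1 belong to a variant of Polycomb repressive complex 1 that is recruited to CpG islands. On the inactive X of female cells, Xist RNA brings in Polycomb complexes and the chromosome carries H3K27me3 along most of its length, with H3K9me3 in separate domains. The 10 genes were read here for the marks they carry, while their proteins and RNA were not measured.

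In EpiSCs the 10 genes shared a lower H3K9me3 in MD1 but differed in H3K27me3. All 10 had less H3K9me3 in MD1 than in WT as deposited, as did 95.9% of 708 genes. After centring on the median change of all genes 6 of 10 had less, where by construction as many genes lie under 0 as over it. In the same comparison H3K27me3 was 17.2-fold lower at Ogt, 19.1-fold higher at Brwd3 and within 2-fold at 5 genes. Of all 708 genes 11.3% were at least 2-fold lower there and 22.7% at least 2-fold higher. In MEFs all 10 were lower in both marks as deposited, where 91.9% of 739 genes were lower in H3K9me3 and 38.6% in H3K27me3. There H3K27me3 was at least 2-fold lower at 6 of the 10 (24.0% of all genes), among them Brwd3 and Suv39h1, which were higher in MD1 EpiSCs.

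**Figure D1:**
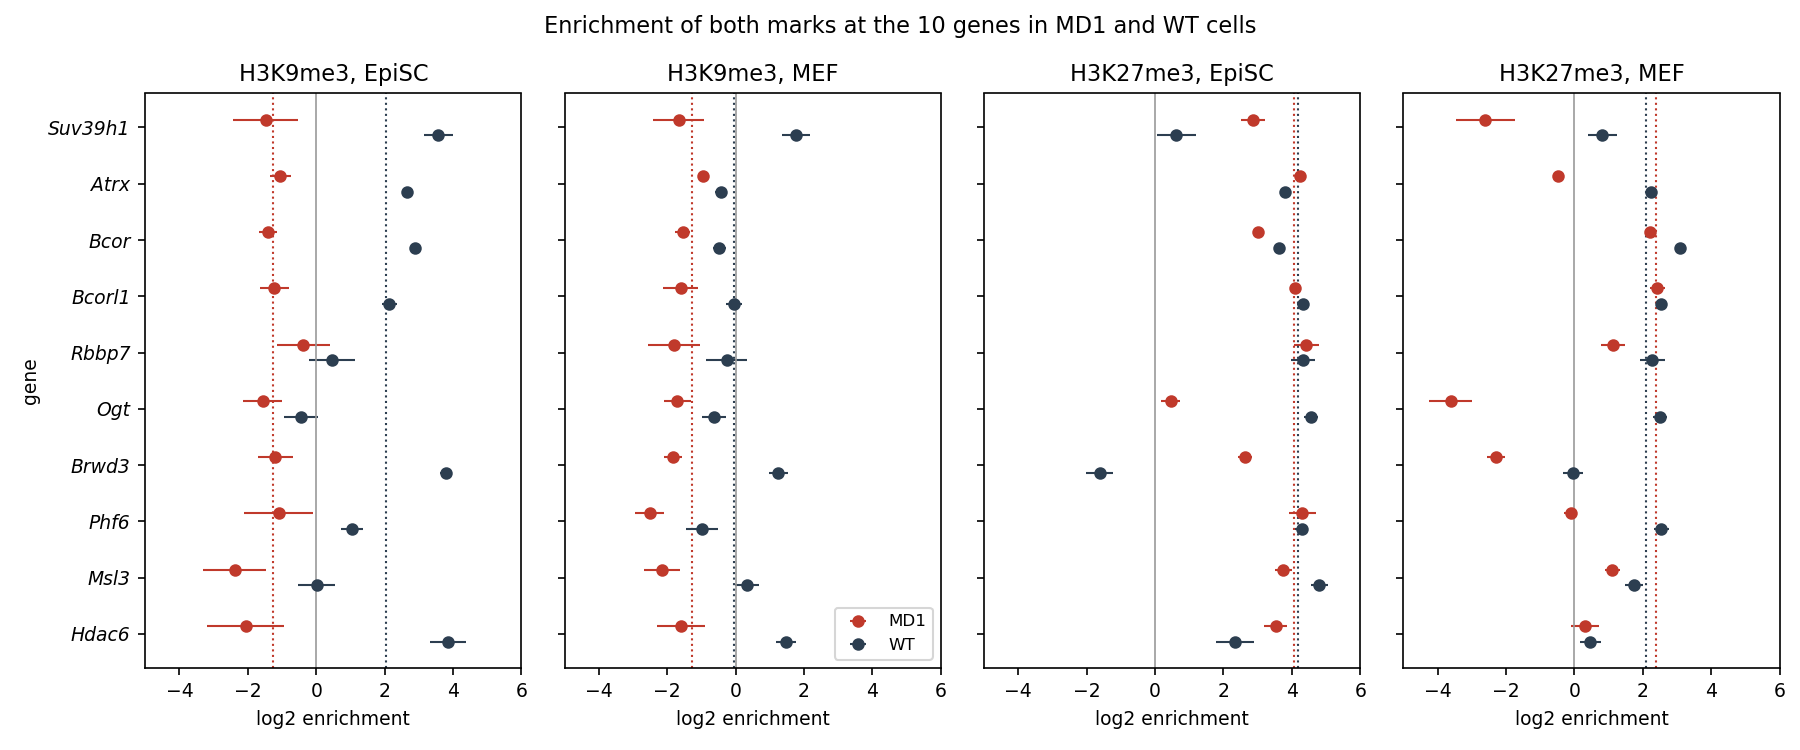
Log2 enrichment (x axis) of the 10 genes (rows) in MD1 cells (red) and WT cells (dark blue), in 1 panel per mark and cell type. Bars are 95% counting intervals, dotted lines are the medians of all genes in the library, and the grey line at 0 is the input level. In the H3K9me3 panels all 10 red points lie under 0, as do 87.4% of 736 genes in MD1 EpiSCs and 88.9% of 754 in MD1 MEFs. Among the red points of the H3K27me3 panels Ogt in MD1 EpiSCs (0.45) and Suv39h1, Ogt and Brwd3 in MD1 MEFs (−2.61, −3.62 and −2.30) lie farthest from the red medians.

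The levels in single libraries set the scale for these changes. H3K9me3 was at least 2-fold over input at 0 of the 10 genes in MD1 EpiSCs (5.30% of 736 genes on the X) and at 7 of 10 in WT EpiSCs (64.0% of 719 genes). In MEFs the counts were 0 of 10 in MD1 (2.92% of 754 genes) and 3 of 10 in WT (20.3% of 747 genes). In WT cells the 10 genes were thus about as often rich in H3K9me3 as the X as a whole. For H3K27me3 the same threshold was passed by 9 of 10 in MD1 EpiSCs (96.1% of genes) and 8 of 10 in WT EpiSCs (87.1%). In MEFs it was passed by 4 of 10 in MD1 (75.1%) and 7 of 10 in WT (80.9%). The median of the 10 was 0.10 in MD1 MEFs, where that of all genes was 2.38, and 2.26 in WT MEFs, where that of all genes was 2.09.

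Suv39h1, which encodes the H3K9 methyltransferase itself, lies at X, 7638297 to 7651886 (mm9, minus strand), and Hdac6, a mainly cytoplasmic deacetylase of tubulin, at 7507248 to 7525015 on the same strand. The 2 genes are 113.3 kb apart with 2 measured genes between them. Both were among the H3K9me3-richest of the 10 in WT cells.

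Suv39h1 had an H3K9me3 value of −1.48 in MD1 EpiSCs, against 3.56 in WT EpiSCs, and of −1.66 in MD1 MEFs, against 1.76 in WT MEFs. The MD1 values were under input and the WT values 11.8-fold and 3.38-fold over it. The change was −5.05 (95% counting interval −6.08 to −4.01) in EpiSCs and −3.42 (−4.27 to −2.57) in MEFs.

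H3K27me3 at Suv39h1 differed in opposite directions in the 2 cell types. It was 2.86 in MD1 EpiSCs, against 0.62 in WT EpiSCs, a change of 2.23 (1.57 to 2.89). MD1 MEFs had −2.61, against 0.81 in WT MEFs, a change of −3.42 (−4.38 to −2.47) on an MD1 ChIP pair of 12. The MD1 EpiSC level was thus above its WT level and the MD1 MEF level far under it.

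Because Suv39h1 was 1 of the 3 genes with the largest H3K27me3 changes in EpiSCs, together with Brwd3 and Ogt, the 250 bases before its start are shown with every CG in capitals, beside those of Bcorl1, whose H3K27me3 hardly differed between genotypes. The sequences are from RefSeq (GRCm38.p6), each read 5′ to 3′ on the strand of the gene, with the positions in that build. The CG dinucleotide is the same on both strands, and CpG-rich promoters are where Polycomb complexes are known to bind. The deposited values are per gene and not for this window.

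Suv39h1, chrX:8074761-8075010, minus strand: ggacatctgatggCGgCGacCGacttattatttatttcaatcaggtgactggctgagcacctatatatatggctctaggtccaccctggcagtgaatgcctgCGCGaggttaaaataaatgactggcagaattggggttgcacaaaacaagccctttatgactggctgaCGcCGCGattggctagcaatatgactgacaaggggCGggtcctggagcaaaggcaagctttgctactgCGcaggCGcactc
Ogt, chrX:101639801-101640050, plus strand: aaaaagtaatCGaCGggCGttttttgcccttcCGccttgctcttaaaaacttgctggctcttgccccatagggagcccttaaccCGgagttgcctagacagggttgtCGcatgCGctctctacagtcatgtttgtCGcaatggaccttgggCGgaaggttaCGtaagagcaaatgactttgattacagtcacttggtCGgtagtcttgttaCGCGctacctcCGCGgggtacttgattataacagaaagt
Brwd3, chrX:108834347-108834596, minus strand: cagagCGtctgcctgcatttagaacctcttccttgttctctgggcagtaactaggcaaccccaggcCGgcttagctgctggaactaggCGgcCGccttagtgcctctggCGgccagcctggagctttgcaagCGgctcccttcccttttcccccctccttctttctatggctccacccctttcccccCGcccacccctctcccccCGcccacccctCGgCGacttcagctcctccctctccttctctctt
Bcorl1, chrX:48341108-48341357, plus strand: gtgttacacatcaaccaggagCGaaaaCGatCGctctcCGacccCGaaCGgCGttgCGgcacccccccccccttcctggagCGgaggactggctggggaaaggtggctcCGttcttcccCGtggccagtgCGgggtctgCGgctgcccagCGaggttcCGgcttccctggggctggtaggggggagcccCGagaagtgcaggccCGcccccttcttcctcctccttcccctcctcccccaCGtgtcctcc

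These windows hold 11 (Suv39h1), 15 (Ogt), 10 (Brwd3) and 18 (Bcorl1) CG dinucleotides. Of the 10 genes 9 matched an entry, Phf6 being the exception, and their counts ran from 6 at Atrx to 34 at Rbbp7, with a median of 16. Over 1045 X-linked promoters of the same length the median was 5, and 88.8% held at least 1. The lowest count among the 9, that of Atrx, was reached or exceeded by 46.2% of X-linked promoters. All 4 printed windows were over that X-linked median.

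Hdac6 resembled Suv39h1 in H3K9me3 and not in MEF H3K27me3. Its H3K9me3 was −2.07 in MD1 EpiSCs, against 3.85 in WT EpiSCs, a change of −5.92 (−7.14 to −4.69), which was the largest decrease of the 10 and 60.3-fold. The MEF value was −1.59 in MD1, against 1.48 in WT, a change of −3.06 (−3.82 to −2.30). The MD1 EpiSC value rests on a ChIP pair of 7. H3K27me3 at Hdac6 was 3.52 in MD1 EpiSCs, against 2.34 in WT EpiSCs, a change of 1.18 (0.54 to 1.82). It was 0.31 in MD1 MEFs and 0.46 in WT MEFs, and the change of −0.15 (−0.65 to 0.34) lay within counting error.

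Atrx, a chromatin remodeller that with DAXX places histone H3.3 in heterochromatin, spans 131.8 kb (X, 102992956 to 103124711, minus strand) and is the longest of the 10. Its H3K9me3 was −1.05 in MD1 EpiSCs, against 2.66 in WT EpiSCs, and the change of −3.71 (−4.05 to −3.38) was larger in size than that of the median gene. In MEFs its H3K9me3 was −0.95 in MD1 and −0.43 in WT. That change of −0.52 (−0.76 to −0.27) was the smallest of the 10 in MEFs and became 0.51 when the comparison was centred on the median change of all genes. H3K27me3 at Atrx was 4.22 in MD1 EpiSCs and 3.79 in WT EpiSCs, a change of 0.43 (0.26 to 0.60) and within 2-fold. In MEFs it was −0.49 in MD1, against 2.24 in WT, a change of −2.74 (−2.91 to −2.56).

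Among the Polycomb genes, Bcor and Bcorl1, the paralogous corepressors of the variant Polycomb complex, were the only 2 of the 10 within 2-fold in H3K27me3 in both cell types as deposited. Of all genes 11.3% were at least 2-fold lower and 22.7% at least 2-fold higher in EpiSCs, and 24.0% and 22.3% in MEFs. After centring on the median change of all genes the MEF change of Bcor was −1.21. They were also the closest pair of the 10 in their pattern over the 8 libraries, with a Euclidean distance of 1.67 after each library was set to its median.

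Bcor (X, 11613864 to 11737481, minus strand) had an H3K27me3 value of 3.02 in MD1 EpiSCs and 3.63 in WT EpiSCs, a change of −0.61 (−0.77 to −0.46). MD1 MEFs had 2.22, against 3.09 in WT MEFs, a change of −0.87 (−1.01 to −0.73). The WT MEF value was the highest of the 10 there and higher than 95.6% of the genes in that library. H3K9me3 at Bcor was −1.41 in MD1 EpiSCs, against 2.89 in WT EpiSCs, a change of −4.30 (−4.60 to −3.99). The MEF value was −1.54 in MD1, against −0.48 in WT, a change of −1.06 (−1.35 to −0.77). An annotated transcript, 2900008C10Rik, overlaps Bcor over 25893 bases, on the same strand, and reads there cannot be told apart.

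Bcorl1 (X, 45694535 to 45759905, plus strand) had the smallest H3K27me3 differences of the 10 taken over both cell types. It was 4.10 in MD1 EpiSCs and 4.31 in WT EpiSCs, a change of −0.21 (−0.44 to 0.02). It was 2.42 in MD1 MEFs and 2.52 in WT MEFs, a change of −0.10 (−0.37 to 0.16). Both intervals included 0. H3K9me3 at Bcorl1 was −1.23 in MD1 EpiSCs, against 2.13 in WT EpiSCs, a change of −3.36 (−3.84 to −2.88). In MEFs it was −1.61 in MD1, against −0.05 in WT, a change of −1.56 (−2.13 to −0.99).

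Rbbp7, which encodes a histone-binding subunit of Polycomb repressive complex 2 and of the NuRD deacetylase complex, lies at X, 159198304 to 159217022 (plus strand). Its H3K9me3 was near input in both genotypes of EpiSCs: the value was −0.38 in MD1 EpiSCs and 0.46 in WT EpiSCs, and the change of −0.84 (−1.86 to 0.19) was the smallest of the 10 in EpiSCs and within counting error. In MEFs H3K9me3 was −1.79 in MD1, against −0.26 in WT, a change of −1.53 (−2.49 to −0.57). H3K27me3 was 4.42 in MD1 EpiSCs and 4.31 in WT EpiSCs, a change of 0.10 (−0.41 to 0.61). MD1 MEFs had 1.13, against 2.28 in WT MEFs, a change of −1.15 (−1.65 to −0.65). Rbbp7 overlaps Txlng over 174 bases, where reads cannot be told apart.

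Ogt encodes the O-GlcNAc transferase, which modifies nuclear and cytoplasmic proteins and whose Drosophila homologue is a Polycomb group gene. It lies at X, 98835390 to 98879690 (plus strand) and was the member with the largest H3K27me3 decrease in both cell types. H3K27me3 was 0.45 in MD1 EpiSCs, against 4.56 in WT EpiSCs, a change of −4.11 (−4.45 to −3.77). Only 0.14% of 708 genes had a more negative change. The MEF value was −3.62 in MD1, against 2.50 in WT, a change of −6.12 (−6.77 to −5.47) or 69.6-fold. There 1.62% of 739 genes had a more negative change.

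Ogt was poor in H3K9me3 throughout. H3K9me3 was −1.56 in MD1 EpiSCs and −0.45 in WT EpiSCs, the lowest WT EpiSC value of the 10. It was −1.71 in MD1 MEFs and −0.64 in WT MEFs. The changes of −1.11 (−1.86 to −0.36) and −1.06 (−1.59 to −0.54) were near the 2-fold threshold, and the EpiSC one became 1.88 when centred on the median change of all genes. Its H3K9me3 value was under the input level in all 4 libraries.

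Among the other chromatin genes, Brwd3, a protein with bromodomains and WD repeats, lies at X, 105937547 to 106029694 (minus strand) and had the H3K27me3 change that differed most between the cell types. Its H3K9me3 was −1.20 in MD1 EpiSCs, against 3.79 in WT EpiSCs, a change of −4.98 (−5.51 to −4.45). In MEFs it was −1.82 in MD1, against 1.25 in WT, a change of −3.07 (−3.44 to −2.69). H3K27me3 was 2.64 in MD1 EpiSCs, against −1.62 in WT EpiSCs. Brwd3 was the only 1 of the 10 under input in WT EpiSCs, where 72 of 719 genes on the X were. The H3K27me3 change of 4.25 (3.81 to 4.70) was larger than the change at 96.2% of the genes. In MEFs the direction was opposite: H3K27me3 was −2.30 in MD1, against −0.03 in WT, a change of −2.26 (−2.66 to −1.87). The 4 H3K27me3 values thus put Brwd3 well over input in MD1 EpiSCs only.

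Phf6, a nuclear protein with PHD-like zinc fingers that binds the NuRD complex, lies at X, 50265391 to 50310138 (plus strand). Its H3K27me3 was 4.30 in MD1 EpiSCs and 4.29 in WT EpiSCs, a change of 0.015 (−0.42 to 0.45). MD1 MEFs had −0.11, against 2.54 in WT MEFs, a change of −2.65 (−2.95 to −2.35). The difference between genotypes was thus seen in MEFs and not beyond counting error in EpiSCs. H3K9me3 at Phf6 was −1.10 in MD1 EpiSCs, against 1.04 in WT EpiSCs, a change of −2.15 (−3.21 to −1.08), which became 0.84 when centred on the median change of all genes. The MEF value was −2.51 in MD1, against −0.99 in WT, the lowest value of the 10 in each of these MEF libraries, and the change was −1.52 (−2.15 to −0.90).

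Msl3, the chromodomain subunit of the MSL histone acetyltransferase complex, which in Drosophila carries out dosage compensation, lies at X, 165091031 to 165111834 (minus strand). Its H3K27me3 was 3.75 in MD1 EpiSCs, against 4.80 in WT EpiSCs, the highest WT value of the 10. The change of −1.05 (−1.40 to −0.70) was just past 2-fold and became −0.98 when centred on the median change of all genes. In MEFs H3K27me3 was 1.10 in MD1 and 1.74 in WT, a change of −0.64 (−0.97 to −0.30). H3K9me3 was −2.38 in MD1 EpiSCs, against 0.01 in WT EpiSCs, a change of −2.39 (−3.47 to −1.32) that became 0.59 after the same centring. It was −2.16 in MD1 MEFs, against 0.32 in WT MEFs, a change of −2.48 (−3.11 to −1.85).

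Set against the whole X, the H3K9me3 decreases of the 10 in EpiSCs were of the common kind. A decrease of 2-fold or more in MD1 relative to WT was seen at 9 of the 10, where 82.9% of 708 genes had one, and H3K9me3 was at least 2-fold higher at 0, where 1.13% were. The exception was Rbbp7. The median change was −3.54 for the 10 and −2.98 for all genes. After centring on that median of −2.98, both quartiles of all 708 genes lay past 2-fold (−4.20 and −1.41 before centring). Of the 10, Hdac6, Suv39h1, Brwd3 and Bcor were then at least 2-fold lower, while Rbbp7 (2.15) and Ogt (1.88) were at least 2-fold higher. The size followed the WT level: the 4 genes with the highest WT H3K9me3, Hdac6, Brwd3, Suv39h1 and Bcor, had the 4 largest decreases, and in MD1 the 10 values ran from −2.38 to −0.38, where in WT they spanned 4.30 log2 units. The change contains the WT value, so this order is a description of the MD1 levels being alike.

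H3K27me3 in EpiSCs divided the 10 genes. Levels were lower in MD1 by 2-fold or more at 2 genes, Ogt and Msl3, where 11.3% of genes were, and at least 2-fold higher at 3, Brwd3, Suv39h1 and Hdac6, where 22.7% were. The median change was 0.059 for the 10 and −0.069 for all genes. The 3 genes that were higher are the 3 with the most H3K9me3 in WT EpiSCs. Among the 7 of the 10 rich in H3K9me3 in WT EpiSCs the median H3K27me3 change was 0.43, with 3 at least 2-fold higher and 0 lower. Among all 452 rich genes it was 0.47, with 159 higher and 29 lower. Among the 3 that were not rich, Ogt, Msl3 and Rbbp7, it was −1.05, and among all 256 such genes −0.48, with 2 higher and 51 lower. The 2 marks of a cell share an input, so their values at a gene are not independent.

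**Figure D2:**
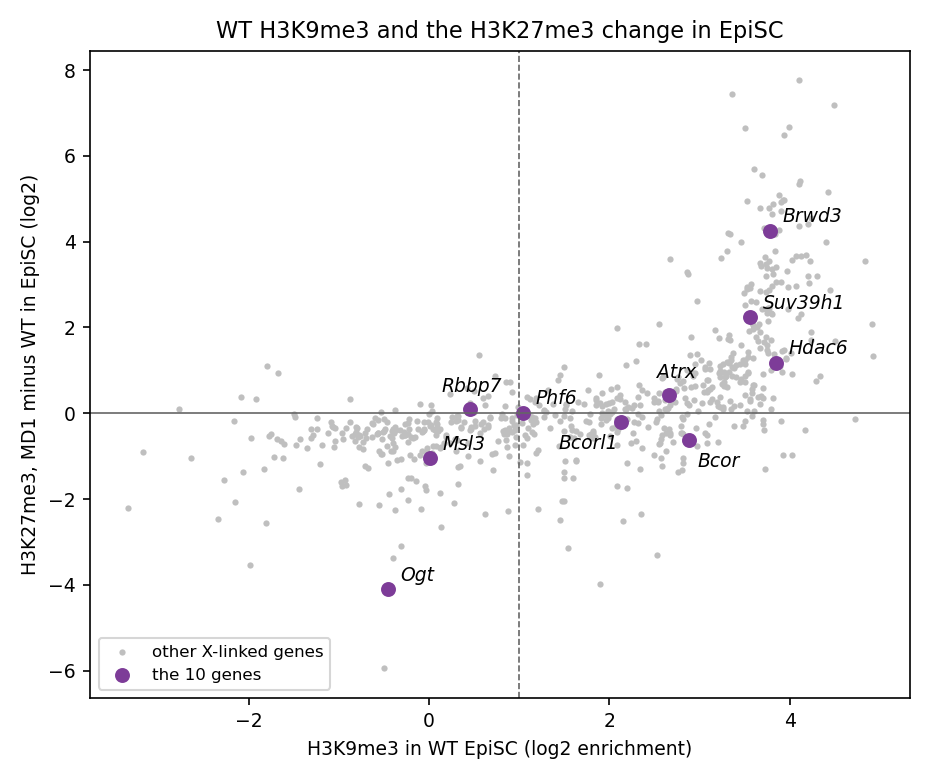
H3K9me3 in WT EpiSCs (x axis, log2 enrichment) against the MD1 minus WT change of H3K27me3 in EpiSCs (y axis, log2) for the 10 genes (purple) and the other X-linked genes measured (grey). The dashed line marks 2-fold over input. Brwd3 (4.25), Suv39h1 (2.23) and Hdac6 (1.18) lie over 0 among the genes with much H3K9me3, whose changes spread widely, and Ogt (−4.11) lies under nearly all genes at its level of H3K9me3.

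In MEFs the median H3K9me3 change over the X was itself close to 2-fold. At 9 of the 10 genes H3K9me3 was lower in MD1 by 2-fold or more, where 51.3% of 739 genes were, and at least 2-fold higher at 0, where 0.677% were. The exception was Atrx. The median change was −1.54 for the 10 and −1.02 for all genes. The count is sensitive to the scale, since Bcor and Ogt, both at −1.06, were just past the threshold. After centring on the median of all genes, the 2-fold cut fell at the lower quartile of all 739 genes (−2.02 before centring). At least 2-fold lower were then 4 of the 10, namely Suv39h1, Brwd3, Hdac6 and Msl3. The first 3 of these were the only 3 of the 10 that were at least 2-fold over input in WT MEFs. As in EpiSCs, the change contains the WT value, so this match is a description. In MD1 MEFs the values of the 10 ran from −2.51 to −0.95.

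H3K27me3 in MEFs lay on the same side of WT at the 10 genes. All 10 values were lower in MD1 than in WT as deposited and under both centrings, and the decrease was at least 2-fold at 6, Ogt, Suv39h1, Atrx, Phf6, Brwd3 and Rbbp7, where 24.0% of 739 genes were that much lower. It was at least 2-fold higher at 0, where 22.3% of genes were. The median change was −1.71 for the 10 and 0.34 for all genes. For Bcorl1 and Hdac6 the counting interval included 0. In MD1 MEFs 5 of the 10 genes were under the input level (17.8% of 754 genes) and in WT MEFs 1 was (6.69% of 747). Centring on all genes or on genes poor in H3K9me3 made the count 7, adding Bcor. Leaving out the lowest 10% of genes removed Ogt, Suv39h1 and Brwd3 and left 3.

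**Figure D3:**
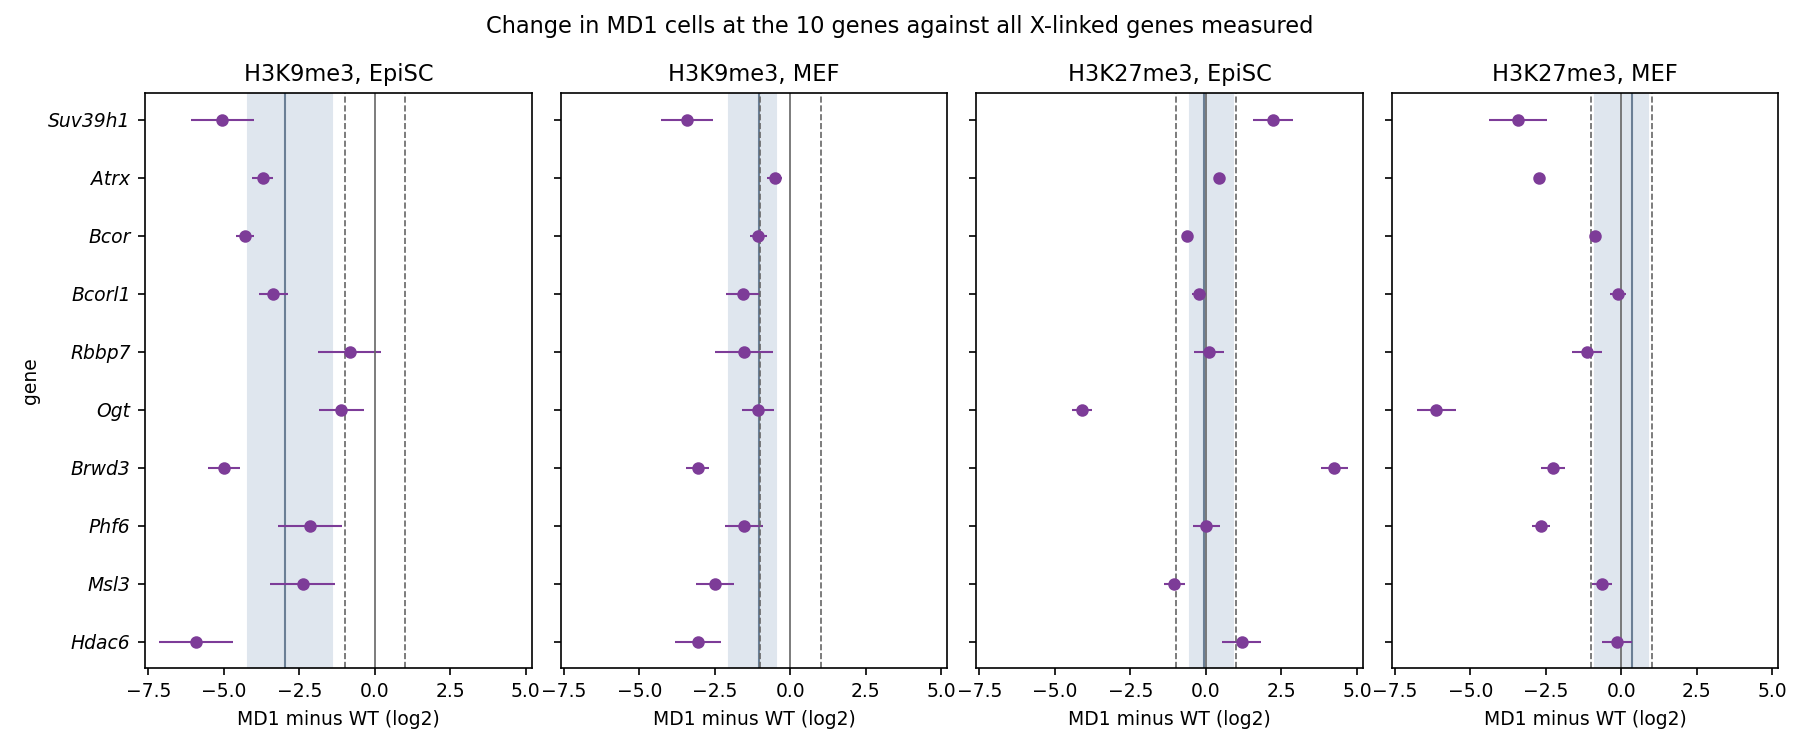
MD1 minus WT change (x axis, log2) at the 10 genes (rows), with 95% counting intervals, in 1 panel per mark and cell type. The grey-blue band runs from the lower to the upper quartile of all X-linked genes measured, with a line at their median, and dashed lines mark 2-fold. H3K9me3 changes lie on the left throughout, the H3K27me3 changes in EpiSCs lie on both sides from −4.11 at Ogt to 4.25 at Brwd3, and the H3K27me3 changes in MEFs are under 0 at all 10 genes.

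The H3K27me3 changes of the 10 genes in MEFs and in EpiSCs were not alike in sign. At 6 genes, Suv39h1, Brwd3, Atrx, Phf6, Rbbp7 and Hdac6, the change was negative in MEFs and positive in EpiSCs, as it was at 13.8% of 698 genes. Only at 3 of these, Suv39h1, Brwd3 and Atrx, did both counting intervals exclude 0. The opposite pattern, positive in MEFs and negative in EpiSCs, was seen at 0 of the 10 and at 26.6% of the 698 genes. For H3K9me3 the count of opposite signs was 0 of 10, and 9.31% of genes had them. Suv39h1 and Brwd3 were at least 2-fold lower in MEFs and at least 2-fold higher in EpiSCs, as were 2.87% of genes. Ogt was the only member at least 2-fold lower in H3K27me3 in both cell types, where 6.16% of genes were. The difference of the changes has no test, since each is a single pair of libraries.

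**Figure D4:**
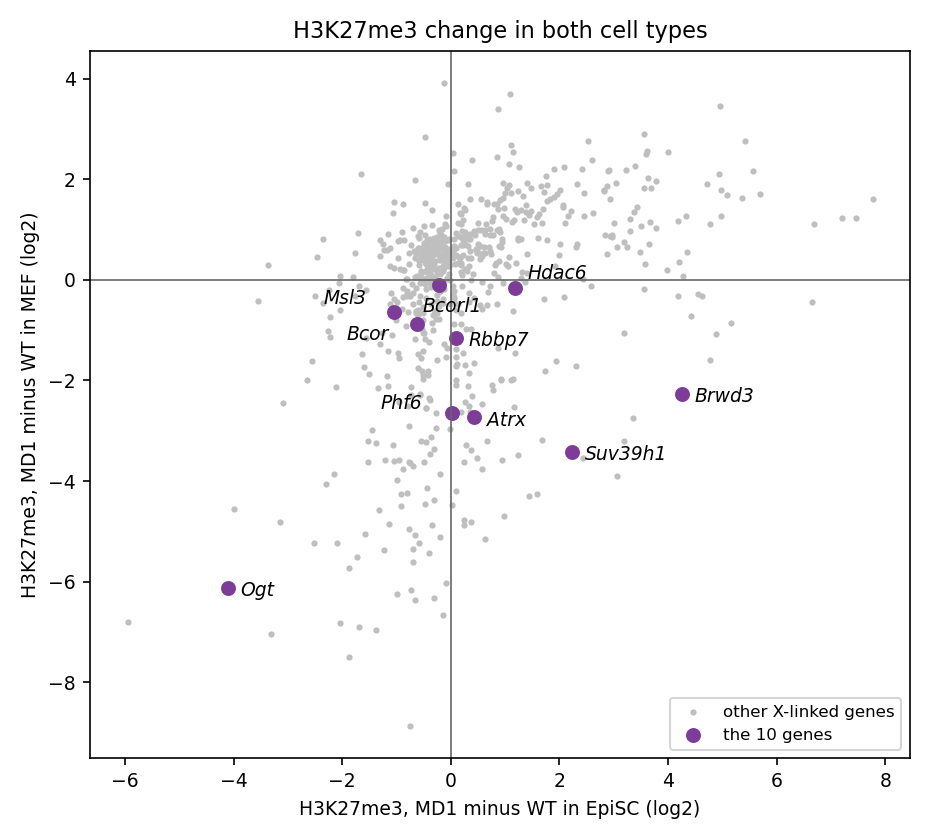
MD1 minus WT change of H3K27me3 in EpiSCs (x axis, log2) against that in MEFs (y axis, log2) for the 10 genes (purple) and the other X-linked genes with both values (grey). Brwd3 and Suv39h1 lie in the lower right part, positive in EpiSCs and negative in MEFs, with some grey points around them, and Ogt (−4.11 and −6.12) lies at the lower left.

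How far the values belong to the gene or to its surroundings was described by setting each member against the median of the 5 measured genes on each side. For H3K27me3 in MD1 MEFs, 7 of the 10 genes were at least 2-fold under their neighbours, where 23.9% of genes on the X were. In WT MEFs it was 0 of 10, where 6.24% of genes were. In EpiSCs it was 1 of 10 in MD1, that 1 being Ogt, where 11.6% of genes were, and 0 of 10 in WT, where 10.7% were. The 7 genes were Suv39h1, Brwd3, Ogt, Phf6, Rbbp7, Msl3 and Atrx.

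With 5 genes on each side the gap was widest at Suv39h1. With 10 on each side it was −5.26 at Ogt, −3.76 at Brwd3 and −3.43 at Suv39h1. Its H3K27me3 value in MD1 MEFs was −2.61, while its neighbours Glod5 and Was had 2.53 and 1.20, and it lay 3.74 under the median of its 10 neighbours. In WT MEFs it was 0.23 over the median of the same 10. Of the 20 other genes in a window of 10 on each side, 2 were still lower in MD1 MEFs. The H3K9me3 of Suv39h1 lay close to its neighbours in all 4 libraries, from −0.48 to −0.09 off their median. In MD1 EpiSCs its H3K27me3 lay 0.78 under its neighbours. Its change of 2.23 stood beside 2.17, the MD1 median of those neighbours minus their WT median.

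Brwd3 had the lowest H3K27me3 of the 21 genes centred on it in MD1 MEFs, 2.81 under its neighbours' median. Its 5′ neighbour 2810403D21Rik starts 122 bases away on the other strand. In MD1 MEFs H3K27me3 was −2.30 at Brwd3 and −0.34 at this neighbour, while in WT MEFs it was −0.03 and −0.02. In EpiSCs the pair lay closer, with 2.64 at Brwd3 and 3.02 at the neighbour in MD1 and −1.62 at both in WT. Brwd3 also had less H3K9me3 than its surroundings in MD1 cells, with −1.20 in EpiSCs and −1.82 in MEFs against neighbour medians of 0.65 and −0.53.

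Ogt lay in a stretch where several genes had less H3K27me3 in MD1 MEFs. The MD1 MEF median of its 10 neighbours minus their WT MEF median was −4.16. Those 10 values ran from −4.40 to 2.94 in MD1 MEFs, so this median is not a shared level and moves with the window. Of the 21 genes centred on Ogt, itself included, 9 were under input in MD1 MEFs and 0 in WT MEFs. Taf1, which encodes the largest protein of TFIID, lies 38.3 kb before Ogt, and Cxcr3, a chemokine receptor, 47.2 kb after it. H3K27me3 at Taf1 was −3.07 in MD1 MEFs, against 2.65 in WT MEFs, while at Cxcr3 it was 2.94 in MD1 MEFs and 2.69 in WT MEFs. In MD1 EpiSCs Ogt had 0.45, Taf1 2.77 and Cxcr3 4.78, where in WT EpiSCs they had 4.56, 4.63 and 5.15. Of the 20 other genes in the window 2 were lower than Ogt in MD1 EpiSCs and 2 in MD1 MEFs.

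**Figure D5:**
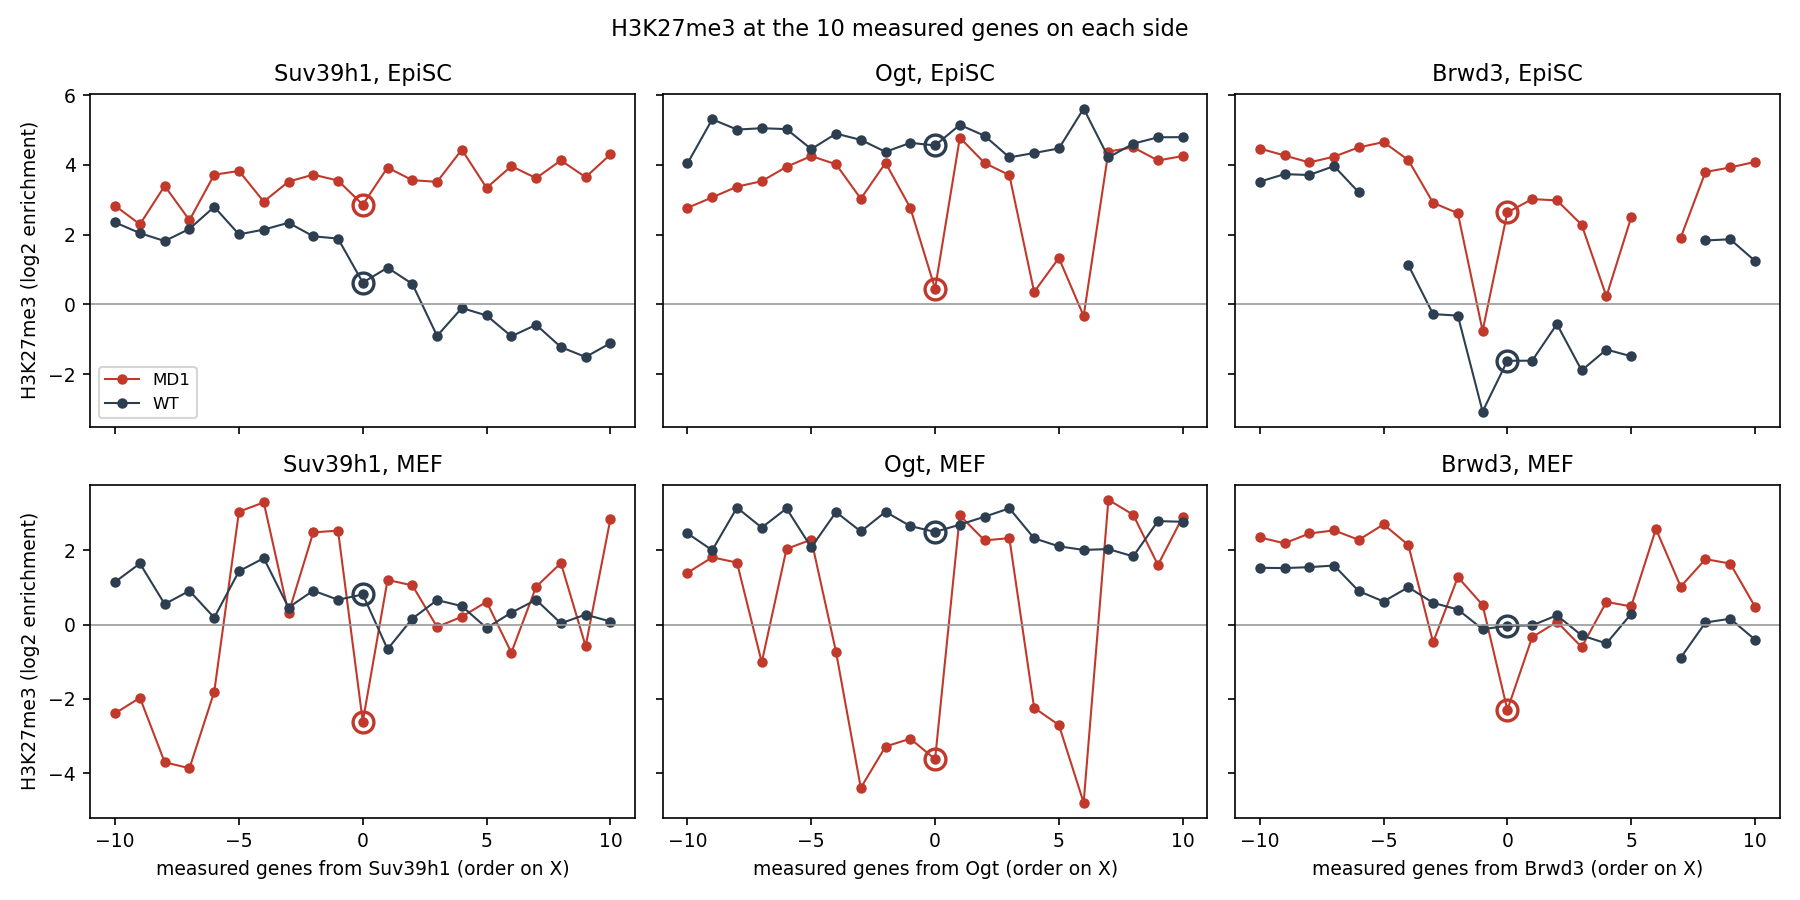
H3K27me3 (y axis, log2 enrichment) in MD1 (red) and WT (dark blue) cells at Suv39h1, Ogt and Brwd3 (circled, at 0 on the x axis) and at the 10 measured genes on each side in their order on X, with EpiSCs above and MEFs under them. Lines join neighbouring genes with a value. Suv39h1 and Brwd3 drop under their neighbours in MD1 MEFs (−2.61 and −2.30), and Ogt drops in both cell types. In MD1 EpiSCs Suv39h1 lies 0.78 and Brwd3 0.13 under the median of the 10 nearest genes.

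The other members differed less from their 5 neighbours on each side. In MD1 MEFs H3K27me3 lay 1.95 under the neighbours' median at Phf6, 1.66 under it at Rbbp7, 1.51 at Msl3 and 1.12 at Atrx, 0.82 under it at Hdac6, and over it by 0.72 at Bcorl1 and 0.21 at Bcor. These gaps moved with the window: Atrx was at −2.95 and Phf6 at −2.67 with 10 genes on each side, Hdac6 at −2.20 with 3 and −0.11 with 10, Bcorl1 at 1.23 with 3 and 0.09 with 10, and Bcor at −0.28 with 3. Phf6 was next to Hprt (31.1 kb away), the purine salvage gene, which had −0.39 in MD1 MEFs and 2.08 in WT MEFs. Atrx was next to Magt1, a magnesium transporter gene that was also the most alike of 697 genes in its pattern over the 8 libraries (distance 1.07). Magt1 had H3K27me3 of 0.04 in MD1 MEFs and 2.16 in WT MEFs, while Fgf16 on the other side of Atrx had 2.46 in MD1 MEFs and 1.75 in WT MEFs. Bcor had its smallest distance, 0.72, to the overlapping 2900008C10Rik, and Ogt its own to Taf1 (2.52), the largest of the 10 such distances.

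For 6 of the other members the gene with the most similar pattern lay elsewhere on the X or some genes away. These were Otud5 for Suv39h1 (distance 1.93), Syn1 for Hdac6 (1.23), Xpnpep2 for Bcorl1 (0.68), Tbc1d25 for Brwd3 (2.21), Ribc1 for Rbbp7 (1.22) and Pdha1 for Msl3 (0.88). Over all 10 genes the distance was smallest at Bcorl1. It was largest at Ogt, Brwd3 and Suv39h1, so their nearest matches over the 8 libraries were the least close.

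A separate list of 28 names of other X-linked chromatin genes, which leaves out the members, was described by the same thresholds. It held 27 genes in the table, of which 25 had a change in EpiSCs and 24 in MEFs. H3K9me3 was at least 2-fold lower in MD1 at 19 of 25 in EpiSCs (82.9% of all genes) and 15 of 24 in MEFs (51.3%), and higher at 0 in both (1.13% and 0.677%). H3K27me3 was at least 2-fold lower at 6 (11.3% of all genes) and higher at 6 of 25 (22.7%) in EpiSCs, with a median change of −0.41. In MEFs it was lower at 11 (24.0%) and higher at 3 of 24 (22.3%), with a median of −0.72, where that of all genes was 0.34. Among the decreases in MEFs were those at Taf1 (−5.73), Zbtb33, the Kaiso repressor (−5.16), and Morf4l2, a chromodomain-related subunit of acetyltransferase complexes (−5.08). Cul4b, a ubiquitin ligase scaffold, was the 1 gene of this list that was at least 2-fold lower in MEFs (−2.75) and at least 2-fold higher in EpiSCs (3.36), as Suv39h1 and Brwd3 were.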

How the data were processed

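The authors deposited 1 table with a log2 enrichment value per gene and ChIP library for 952 X-linked genes. The tools were SAMtools, BWA and cutadapt and the build mm9, per the submitters' processing notes. No source used here gives the tool versions, the counting rule or the scaling of each library. Gene coordinates are mm9, with the deposited starts, which count from 0, moved to count from 1.

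Changes are MD1 minus WT log2 values. A gene was called at 2-fold, since 1 library per group allows no test. Whole-number ChIP and input pairs were recovered by finding 1 constant per library that turned each value into a ratio of whole numbers (denominator at most 30000, relative tolerance 1e-12). All values (100%) matched in each library, and the procedure was tested on simulated counts. The 2 marks of the same cells were given a common denominator. Intervals are 95% normal approximations on the log scale. Percentiles are shares of genes with a lower value. Flanking medians used 5 measured genes on each side, without other members. Named were the members, their nearest measured neighbours, for each the gene with the smallest Euclidean distance over the 8 library-centred values, and examples of the listed chromatin genes past 2-fold; some results under this rule are not reported here. Members and lists were chosen with earlier results of these data known. Python 3.11.15 with pandas 2.3.3 and numpy 2.4.6 was used.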

Additional observations from a re-analysis of the deposited data

Results flagged for a closer look

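The H3K27me3 change had opposite signs in the 2 cell types at 6 of the 10 genes, as at 40.4% of 698 genes, each with 1 MD1 and 1 WT library per cell type, and the difference was not tested across samples. The MD1 minus WT change was −2.26 in MEFs and 4.25 in EpiSCs at Brwd3, a difference of −6.52 (95% counting interval −7.11 to −5.92). It was −3.42 in MEFs and 2.23 in EpiSCs at Suv39h1, a difference of −5.66 (−6.82 to −4.49). At Atrx the changes were −2.74 in MEFs and 0.43 in EpiSCs, a difference of −3.17 (−3.41 to −2.93). At Phf6 they were −2.65 in MEFs and 0.015 in EpiSCs, at Hdac6 −0.15 in MEFs and 1.18 in EpiSCs, and at Rbbp7 −1.15 in MEFs and 0.10 in EpiSCs. For these last 3 genes 1 of the 2 counting intervals included 0. The intervals cover counting error only, and the part of the library constants in these differences was not tested.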

How the results depend on the processing

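Of 64 recomputed counts of members 53 lay within 1.5 times the value given. Centring on the median change of all genes left H3K9me3 at least 2-fold lower at 4 of 10 genes in EpiSCs and 4 in MEFs, higher at 2 in EpiSCs, and H3K27me3 lower at 1 in EpiSCs. Centring on genes poor in H3K9me3 left 4 lower for H3K9me3 in MEFs and 1 for H3K27me3 in EpiSCs. A 3-fold threshold left 4 and 1 for the same comparisons, as fewer changes reach it. Leaving out the lowest 10% of genes left 3 with lower H3K27me3 in MEFs, since it removes the lowest members. With 10 genes on each side, 2 members in MD1 EpiSCs and 1 in WT EpiSCs were 2-fold under their neighbours in H3K27me3. Centring on all genes turned the EpiSC H3K9me3 change positive at Rbbp7 (2.15), Ogt (1.88), Phf6 (0.84) and Msl3 (0.59), by its own construction. Of 120 single changes under other settings 64 stayed within their counting interval and 8 changed sign, the others being Rbbp7 once more (0.25), Atrx H3K9me3 in MEFs (0.51 and 0.37) and Bcorl1 H3K27me3 in EpiSCs (0.27), each under a centring. Of 160 differences from flanking genes 136 stayed within it and 14 changed sign, all 14 from a size of 0.206 or less. No paired analysis was possible because each group has 1 library. Depth limits H3K9me3 in MD1 EpiSCs most, where the median ChIP pair was 13.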
